A study of Mus musculus with 6 samples.

Results

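Transcripts of 10 genes that make cyclic AMP, break it down or carry its signal to CREB were followed in mouse cells treated with NETs. These neutrophil extracellular traps are nets of chromatin, coated with granule proteins, that activated neutrophils throw out. The genes were chosen by symbol, with earlier results of these data known. They are the adenylyl cyclases Adcy7 and Adcy9 and the phosphodiesterases Pde4a, Pde4b, Pde4d, Pde7a and Pde3b. The others are the transcription factors Creb1 and Crem and the kinase Sik1. All 10 are among the 55401 genes of the deposited table, and all 10 had enough reads to be among the 15272 genes tested. Total RNA of 3 NETs-treated and 3 control samples was sequenced as strand-specific libraries. Both groups are of wild-type genotype (WT); the control is labelled Normal, with no NETs added, and no other agent is named for either group. The cells are labelled BMDM (macrophages grown from bone marrow), yet every title contains BV2, which is a microglial cell line of the mouse. No source used here states the NETs dose, the exposure time or whether the replicates were separate cultures or animals. The p-values thus set the difference between the groups against the scatter of these samples, and that scatter may be technical.

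Cyclic AMP is made from ATP at the inner face of the plasma membrane by adenylyl cyclases, which receptors switch on through the G protein Gs and restrain through Gi. Phosphodiesterases hydrolyse it, and the PDE4 enzymes are the best known of these in leukocytes, where inhibitors of PDE4 lower the output of inflammatory cytokines. Cyclic AMP frees the catalytic subunits of protein kinase A, which phosphorylate CREB and its relatives, while salt-inducible kinases hold back the CRTC coactivators of CREB until protein kinase A inhibits them. Several parts of this circuit, such as short Crem forms, Pde4 genes and Sik1, are known as targets of CREB that feed back on the signal.

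The libraries held between 39994613 and 44274445 counts. All 8 macrophage markers averaged at least 1 CPM (counts scaled to the same total in each library). Their summed levels were 5639 to 5812 CPM in control and 10254 to 10543 CPM in NETs-treated libraries. Only Cd14, from a mean of 691 to 5442 CPM, and Lyz2 were called higher, while Csf1r, Adgre1, Cd68, Itgam, Fcgr1 and Mertk were called lower by edgeR, with Csf1r going from 178 to 87.1 CPM and Mertk from 33.5 to 4.86 CPM. The part of these differences in the other results was not tested. Of 9 microglia markers 3 reached that level, and Sall1 was at 0 in all 6 libraries. Of 11 neutrophil markers 3 reached it, with sums of 9.76 to 11.9 CPM in control and 9.57 to 15.4 CPM in NETs-treated libraries. These similar sums hid opposite moves, with 1 marker called higher and 2 lower by edgeR. S100a8 went from a mean of 2.68 to 11.7 CPM and Csf3r from 6.21 to 0.127 CPM. Cxcr2 was also lower in every NETs-treated library than in any control. The source of these differences was not tested. S100a9, Ly6g, Mpo, Ngp, Ltf and Retnlg were at 0 throughout. None of the 6 T cell, 5 B cell, 5 fibroblast, 4 endothelial and 4 erythroid markers averaged 1 CPM, while 2 of 6 dendritic cell markers did. The NETs-treated libraries differed more from each other than the controls, with a median SD of log2 CPM over genes of 0.20 against 0.12, and the NETs-treated replicates 1 and 3 were the least alike pair.

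Pde4b, a main phosphodiesterase gene of leukocytes, and Crem, a target and modulator of CREB, rose 8.51-fold and 9.30-fold in NETs-treated cells. The adenylyl cyclase genes Adcy9 and Adcy7 fell 3.42-fold and 1.35-fold. In all, 6 of the 10 genes rose (Pde4b, Crem, Creb1, Sik1, Pde7a and Pde4a), 3 fell (Adcy9, Adcy7 and Pde4d), and Pde3b did not pass (edgeR's quasi-likelihood test with 3 samples a group, threshold 0.05 after Benjamini-Hochberg adjustment over all tested genes). Over all tested genes 52.7% passed, 25.5% higher and 27.2% lower, so 9 of 10 stands against a high background. The 10 were chosen with earlier results of these data known, so setting them beside all tested genes is a description only. Calls with at least a 2-fold change were made for 4 of the 10 genes (Crem, Pde4b, Adcy9 and Pde4d), against 19.3% of tested genes. The samples of the groups did not overlap for any of the 10 genes, a state reached by 62.4% of tested genes. Of the 10, 7 lay higher and 3 lower in all NETs-treated samples, against 29.9% and 32.5% of tested genes. The median log2 fold change of the 10 genes was 0.60, and that of all tested genes was -0.02. In bulk RNA, fewer cells with a transcript and less of it per cell cannot be told apart.

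**Figure D1:**
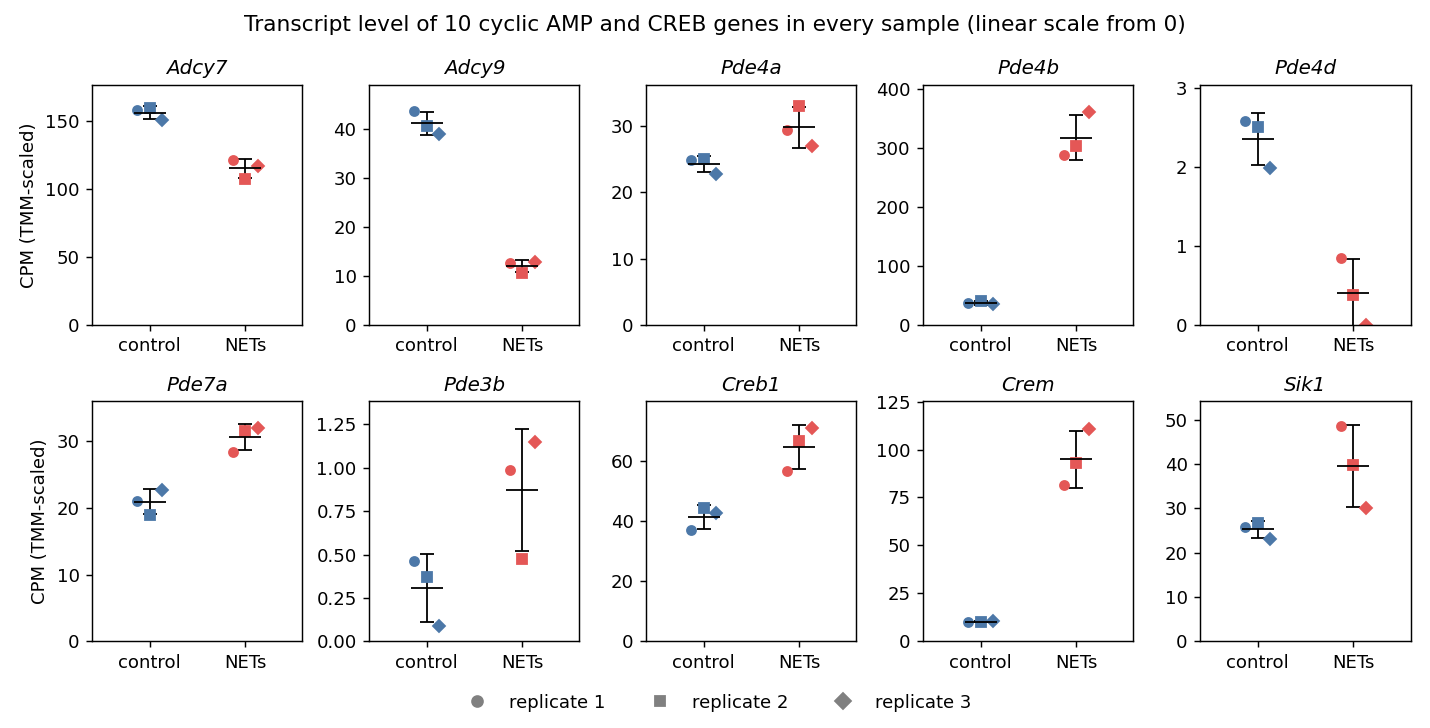
Level of each of the 10 genes in every sample, in CPM scaled by TMM on linear axes from 0; symbols are replicates, horizontal marks are group means and bars are SD (n = 3), the lower bar of Pde4d in NETs-treated samples being cut at 0. Pde4b and Crem sit far above control in all NETs-treated samples, Adcy9 far below, and Pde4d spreads most among the NETs-treated samples relative to its mean, followed by Pde3b and Sik1.

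CREB binds the palindrome TGACGTCA and, more weakly, its 5-base core TGACG, so the start sites of the 10 genes were searched for these letters. RefSeq promoter windows (GRCm38.p6, from 250 bases before to 50 after a start) were matched by symbol for 6 of the 10 genes. The 13 windows included 4 for Pde4b and 3 each for Pde4a and Adcy7. For Pde4b, Adcy7 and Pde4d every matched window lay inside the GENCODE locus, so none covered its outermost start. Windows were not matched for Pde7a, Pde3b, Sik1 and Crem. The full palindrome stood in 0 of the 13 windows and in 1.79% of all 32851 windows of the same length. The core, searched on both strands as TGACG or CGTCA, stood in 4 of 13 windows against 20.8% of all windows. Those 4 windows are printed because they hold the match and belong to 2 phosphodiesterase genes that rose and 2 cyclase genes that fell. Capitals mark the core, and each sequence reads 5′ to 3′ on the strand of the gene.
Pde4b, chr4:102421305-102421604, plus strand: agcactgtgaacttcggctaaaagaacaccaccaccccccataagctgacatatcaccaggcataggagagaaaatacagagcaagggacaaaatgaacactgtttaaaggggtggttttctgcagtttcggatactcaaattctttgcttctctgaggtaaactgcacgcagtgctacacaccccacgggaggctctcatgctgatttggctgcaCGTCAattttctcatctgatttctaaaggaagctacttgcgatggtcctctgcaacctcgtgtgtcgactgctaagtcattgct
Pde4a, chr9:21183851-21184150, plus strand: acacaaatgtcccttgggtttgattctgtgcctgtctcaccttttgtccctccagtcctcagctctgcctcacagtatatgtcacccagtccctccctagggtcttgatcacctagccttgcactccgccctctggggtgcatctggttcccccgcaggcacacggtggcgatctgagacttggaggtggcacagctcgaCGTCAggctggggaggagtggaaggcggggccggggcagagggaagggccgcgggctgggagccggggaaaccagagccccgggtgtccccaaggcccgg
Adcy9, chr16:4420449-4420748, minus strand: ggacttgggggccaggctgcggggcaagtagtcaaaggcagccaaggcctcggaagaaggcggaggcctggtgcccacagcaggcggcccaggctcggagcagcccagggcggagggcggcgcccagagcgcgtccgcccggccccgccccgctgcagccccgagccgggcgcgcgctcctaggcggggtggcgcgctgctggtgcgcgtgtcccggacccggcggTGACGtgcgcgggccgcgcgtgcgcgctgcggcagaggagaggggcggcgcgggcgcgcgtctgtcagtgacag
Adcy7, chr8:88282742-88283041, plus strand: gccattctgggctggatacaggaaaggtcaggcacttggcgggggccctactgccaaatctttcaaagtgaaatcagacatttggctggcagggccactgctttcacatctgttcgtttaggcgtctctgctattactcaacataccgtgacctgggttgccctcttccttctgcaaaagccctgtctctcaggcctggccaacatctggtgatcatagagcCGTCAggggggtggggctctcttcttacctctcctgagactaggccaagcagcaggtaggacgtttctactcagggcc
In each of the 4 the match begins close upstream of the start, at 34 bases in Pde4b, 50 in Pde4a, 24 in Adcy9 and 28 in Adcy7. The Adcy9 window is rich in CpG, with 42 CpG and 78.3% G and C, while the Pde4b window has 8 CpG and 47.0% G and C. A match is a stretch of letters only, and the other 3 windows of Pde4b had no such match.

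Transcripts of both cyclases that these cells mainly express fell. Adcy9 (ENSMUSG00000005580.11, chromosome 16, 4287529 to 4420498 in GRCm38, GENCODE M21) encodes a widely expressed cyclase that is poorly responsive to forskolin. Its level was 43.7, 40.7 and 39.1 CPM in the control and 12.6, 10.6 and 12.9 CPM in the NETs-treated samples. The highest NETs-treated sample stood at 33.0% of the lowest control. The log2 fold change was -1.78 ± 0.11 (SE), and edgeR gave a Benjamini-Hochberg adjusted p of 4.67e-06.

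Adcy7 (ENSMUSG00000031659.13, chromosome 8, 88272403 to 88329962) encodes the cyclase best known in blood cells. Its level was 158, 159 and 151 CPM in control and 121, 107 and 117 CPM in NETs-treated samples. The groups stood clear of each other, with a log2 fold change of -0.44 ± 0.07 (SE; edgeR adjusted p = 0.000983). Of the other 8 cyclase genes, 4 had no read in any library and 3 were too low to test. Adcy3 was the only other one tested, and at 1.02 ± 0.263 CPM in control and 1.55 ± 0.310 CPM in NETs-treated samples (SD, n = 3) it did not pass (edgeR adjusted p = 0.177).

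Per kilobase of the longest transcript, the 10 cyclase genes summed to 35.6, 35.2 and 33.4 CPM in the control and 23.3, 20.4 and 22.5 CPM in the NETs-treated samples. The summed level in NETs-treated samples was 0.636 of control. Adcy9 supplied 23.8% ± 0.794 of that sum in control and 10.9% ± 0.571 in NETs-treated samples, and Adcy7 went from 75.5% ± 0.709 to 87.7% ± 0.573. Adcy7 was the larger part in every sample. These sums and shares are descriptions of the samples, with no test.

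The largest rise of the 5 phosphodiesterase genes was that of Pde4b. The gene (ENSMUSG00000028525.16, chromosome 4, 102087543 to 102607259) encodes the PDE4 enzyme that lipopolysaccharide is known to induce in monocytes and macrophages. Its level was 36.6, 41.0 and 34.6 CPM in control and 288, 304 and 361 CPM in NETs-treated samples. The lowest NETs-treated sample was 7.03 times the highest control. The log2 fold change was 3.09 ± 0.11 (SE; edgeR adjusted p = 3.43e-07), above that of 99.0% of tested genes.

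Pde4a (ENSMUSG00000032177.17, chromosome 9, 21165714 to 21213248), a second PDE4 gene, rose slightly. It was at 24.9, 25.1 and 22.9 CPM in control and 29.5, 33.1 and 27.0 CPM in NETs-treated samples. The gap between the groups was 1.87 CPM, and the log2 fold change was 0.30 ± 0.10 (SE; edgeR adjusted p = 0.0387). This call was lost in 6 of 16 alternative settings, among them scaling by library size only (adjusted p = 0.0996) and the fits without any 1 of the 3 controls or without NETs-treated replicate 2 (adjusted p from 0.0829 to 0.141).

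Pde4d (ENSMUSG00000021699.17, chromosome 13, 108449948 to 109953461), the longest of the 10 loci, was rarely read. Its raw counts were 111, 108 and 90 in control and 36, 15 and 0 in NETs-treated samples, or 2.58, 2.51 and 1.98 CPM against 0.847, 0.374 and 0 CPM. The count of 0 in NETs-treated replicate 3 allows up to 3 counts, or 0.0766 CPM, which covers counting error only. The log2 fold change of -2.51 ± 0.85 (SE; edgeR adjusted p = 0.0351) had the widest error of the 10. Its size turned on single libraries, at -1.93 without NETs-treated replicate 3 and -3.61 without replicate 1, and the call was lost in 5 of 16 settings (adjusted p from 0.0726 to 0.097).

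Pde7a (ENSMUSG00000069094.12, chromosome 3, 19223108 to 19311322) encodes a cyclic AMP-specific enzyme that PDE4 inhibitors do not block. Its raw counts were 904, 819 and 1032 in control and 1209, 1265 and 1254 in NETs-treated samples. Scaled, the groups stood apart at 20.9 ± 1.87 and 30.7 ± 1.95 CPM (SD, n = 3). Its rise, a log2 fold change of 0.55 ± 0.10 (SE; edgeR adjusted p = 0.00216), held in all 16 settings. Pde3b (ENSMUSG00000030671.9, chromosome 7, 114415281 to 114539251), the enzyme through which insulin lowers cyclic AMP in fat cells, had few reads, with 20, 16 and 4 raw counts in control and 42, 19 and 45 in NETs-treated samples. In CPM the lowest NETs-treated value of 0.474 barely exceeded the highest control value of 0.465, and the log2 fold change of 1.49 ± 0.66 did not pass (edgeR adjusted p = 0.0891).

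Within the PDE4 family the share of Pde4b was higher in every NETs-treated sample. Per kilobase of the longest transcript, Pde4b gave 54.6% ± 1.75 of the summed PDE4 level in control and 90.9% ± 1.52 in NETs-treated samples (SD, n = 3). Pde4a went from 32.9% ± 0.779 to 7.99% ± 1.40, although its own level was higher. Pde4d made up 3.82%, 3.53% and 3.20% in control and 0.270%, 0.113% and 0% in NETs-treated samples. The PDE4 sum was 16.1, 16.9 and 14.7 CPM per kilobase in control and 74.5, 78.5 and 90.6 in NETs-treated samples, a ratio of 5.11 between the means. Its members went in different directions while their sum was higher in every NETs-treated sample.

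Over the 16 listed genes whose enzymes hydrolyse cyclic AMP, 13 were tested. Of these 5 rose and 5 fell, beside 25.5% and 27.2% of all tested genes. Their median log2 fold change was 0.30. Without Pde4a, Pde4b, Pde4d, Pde7a and Pde3b, 2 of 8 rose and 4 fell. Pde2a, which cyclic GMP stimulates, rose from 0.0465, 2.32 and 1.67 CPM to 17.4, 6.93 and 20.8 CPM. Pde8b had a log2 fold change of -2.43 ± 0.35, and Pde1c of -3.20 ± 0.86 at a mean under 1 CPM in both groups. The call for Pde1c was lost without control replicate 2, and its log2 fold change was -4.10 without NETs-treated replicate 1 and -2.64 without replicate 3. Named after their values were seen, the calmodulin-dependent enzyme gene Pde1b rose from 35.1 ± 3.16 to 70.3 ± 1.13 CPM, and Pde4c and Pde7b fell by 0.79 and 0.52 on the log2 scale, the call for Pde4c being lost in 5 of the settings. The number that fell was 5 in the main fit and between 2 and 3 without any 1 control or without NETs-treated replicate 2.

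Pde8a, also named after its values were seen, was the largest phosphodiesterase transcript per kilobase in control. It supplied 44.8% ± 0.884 of the summed level of the 16 genes there and 21.8% ± 2.03 in NETs-treated samples, with its own level at 109 ± 6.69 and 117 ± 3.86 CPM (edgeR adjusted p = 0.272). Pde4b went from 13.6% ± 0.685 to 51.9% ± 2.80 of the same sum. The sum of the 16 genes was 61.7, 67.4 and 62.8 CPM per kilobase in control and 135, 139 and 152 in NETs-treated samples. That is 2.22 times control, beside 0.636 for the cyclases.

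**Figure D2:**
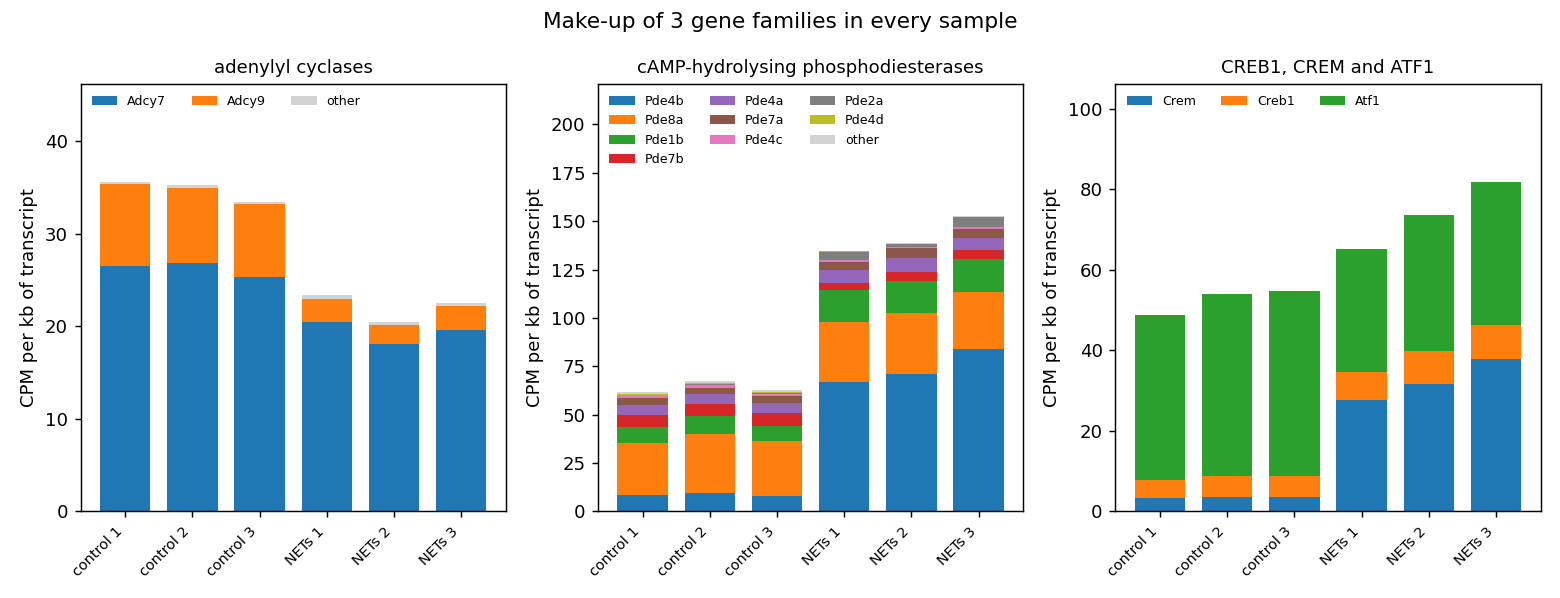
Summed level of the 10 adenylyl cyclase genes, the 16 phosphodiesterase genes and the CREB family in each sample, in CPM per kilobase of the longest transcript, stacked by gene; the axes are linear from 0 and other genes are grey. Cyclase bars are lower and phosphodiesterase bars higher in every NETs-treated sample, with Pde4b at 51.9% of the phosphodiesterase sum there.

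The transcription factor genes Crem and Creb1 both rose, by very unequal amounts. Crem (ENSMUSG00000063889.16) encodes the cyclic AMP responsive element modulator, whose many isoforms include activators and the short inducible repressor ICER. Counts per gene do not tell these isoforms apart, and the annotation holds 39 transcripts of Crem. Its level was 9.84, 10.1 and 10.6 CPM in control and 81.2, 93.0 and 111 CPM in NETs-treated samples. The controls lay within 1 CPM of each other and every NETs-treated sample stood far above them, with a log2 fold change of 3.22 ± 0.13 (SE; edgeR adjusted p = 4.93e-07). Gm6225, an antisense gene that shares 472 of 5895 exon bases with Crem, averaged 1.00 CPM in control and 0.847 CPM in NETs-treated samples.

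Creb1 (ENSMUSG00000025958.14, chromosome 1, 64532645 to 64604548) encodes CREB itself, which is regulated mainly by phosphorylation. It was at 36.9, 44.4 and 42.5 CPM in control and 56.7, 66.7 and 71.0 CPM in NETs-treated samples, without overlap. The log2 fold change of 0.65 ± 0.11 (SE; edgeR adjusted p = 0.00117) ranged from 0.46 with correction for transcript GC content to 0.76 without NETs-treated replicate 1, and passed in all 16 settings.

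Per kilobase of the longest transcript, the Crem level was 0.709 ± 0.0547 of the Creb1 level in control and 4.17 ± 0.248 times it in NETs-treated samples (SD, n = 3). With Atf1 taken as the third gene of this family, Crem supplied 6.90%, 6.40% and 6.64% of the family's summed level in control. In NETs-treated samples it supplied 42.5%, 43.1% and 46.2%. Atf1 went from 84.0% ± 0.159 to 45.5% ± 1.92. Crem was the smallest part of the family in every control and the larger part beside Creb1 in every NETs-treated sample.

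The coactivators did not move as one. Of the 8 genes of the CREB family and its coactivators, all tested, 3 rose and 4 fell (median log2 fold change -0.25). Without Creb1 and Crem, 1 of 6 rose and 4 fell, beside 25.5% and 27.2% of all tested genes. Atf1 fell from 104 ± 6.51 to 78.9 ± 5.73 CPM, and the coactivator gene Crtc1 from 28.6 ± 3.21 to 12.8 ± 0.735 CPM. Crtc2, which encodes the CRTC protein best known for glucose production in liver, rose from 63.7 ± 3.65 to 93.9 ± 13.2 CPM. Crtc3 and the acetyltransferase gene Crebbp, named after their values were seen, fell by 0.38 and 0.36 on the log2 scale, calls that were lost in 7 and 2 of the settings. Without control replicate 1 or without NETs-treated replicate 2, 2 genes of the list were called lower.

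Sik1 (ENSMUSG00000024042.7, chromosome 17, 31844250 to 31855804) encodes the salt-inducible kinase that CREB itself is known to induce. It was at 25.7, 26.8 and 23.2 CPM in control and 48.7, 39.8 and 30.0 CPM in NETs-treated samples. NETs-treated replicate 3 lay 3.23 CPM above the highest control, and replicate 1 lay far above it. The log2 fold change was 0.65 ± 0.16 (SE; edgeR adjusted p = 0.00977), with 0.49 without NETs-treated replicate 1 and 0.82 without replicate 3, and it passed in all 16 settings.

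Replicate 1 was the highest and replicate 3 the lowest NETs-treated sample in 6 of the 10 genes around the salt-inducible kinases (Sik1, Sik3, Stk11, Strada, Hdac5 and Hdac7), and the reverse held in Cab39 and Hdac9. Sik3 and Stk11 are given as examples, named after their values were seen. Sik3 was at 136, 126 and 88.5 CPM and Stk11, the kinase that activates the family, at 98.3, 70.9 and 51.1 CPM in NETs-treated replicates 1, 2 and 3. In control the 2 genes ranged from 114 to 118 and from 62.8 to 68.4 CPM. Such orders were not particular to this list. Among the 10 chosen genes Pde4d also had replicate 1 highest and 3 lowest, and the reverse held in Creb1, Crem, Pde4b and Pde7a. In the CREB family and its coactivators 4 of 8 genes had the first order and 3 the reverse. The part of these library differences in the results of Sik1 and the other genes was not tested. Of the 10 genes around the salt-inducible kinases, all tested, 2 rose and 2 fell, beside 25.5% and 27.2% of all tested genes. With GC correction 1 fell, and without NETs-treated replicate 3 4 rose. Sik2 rose from 29.3 ± 1.07 to 40.1 ± 6.02 CPM, the class IIa deacetylase gene Hdac5 fell by 0.36 on the log2 scale in a call lost with correction for GC content, and Hdac9 had the largest fall of the list at -4.54 ± 0.24 (SE).

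**Figure D3:**
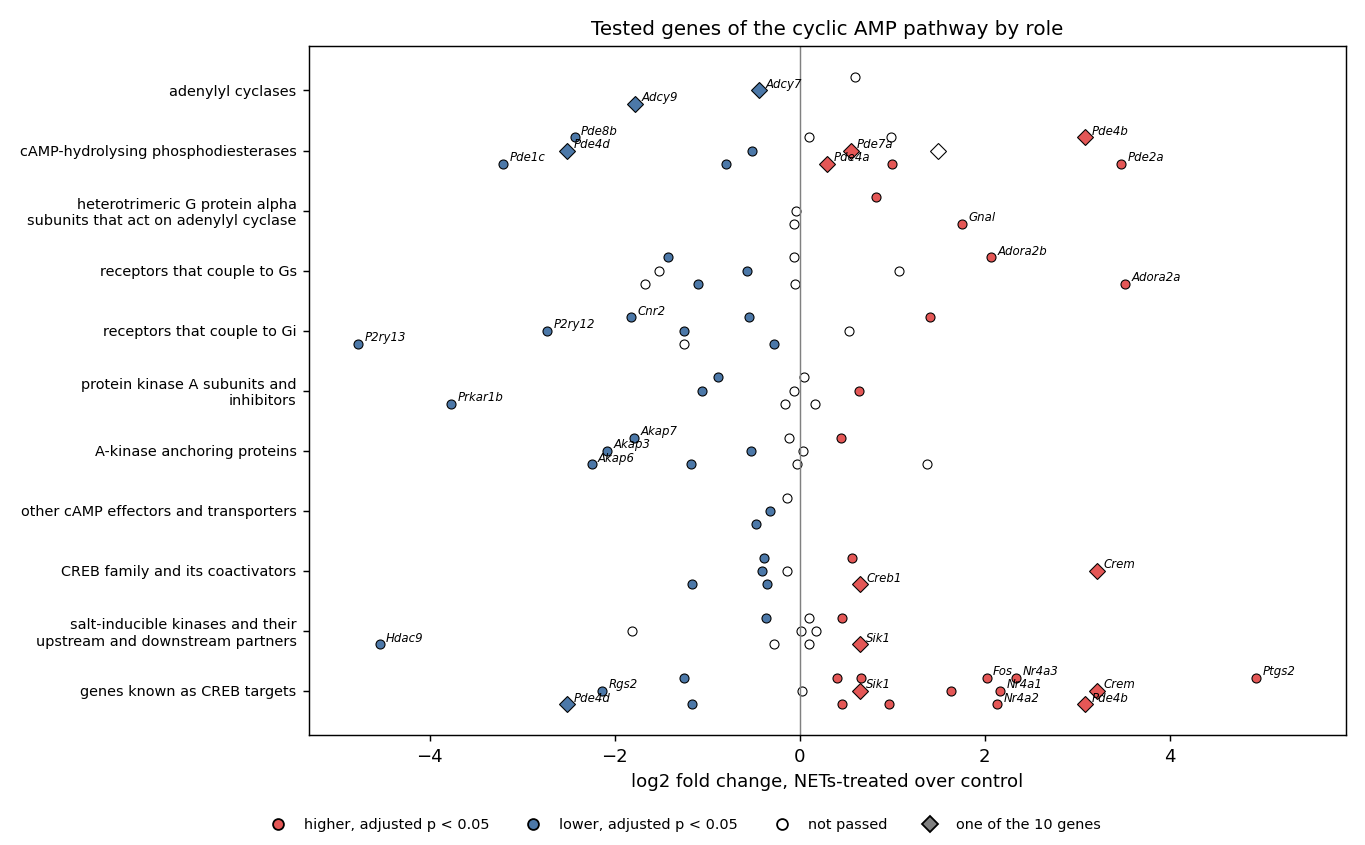
Log2 fold change of every tested gene of the cyclic AMP pathway by role, NETs-treated over control; each point is a gene, diamonds are the 10 genes, red and blue are called higher and lower by edgeR, and white did not pass. Cyclases and anchoring proteins lie mostly left of 0, genes known as CREB targets mostly right, and phosphodiesterases on both sides.

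Upstream, the receptors that raise cyclic AMP through Gs were split. Of 18 listed, 10 were tested, 2 rose and 3 fell, beside 25.5% and 27.2% of all tested genes. The median of their log2 fold changes was -0.32, and over the settings it ran from -1.06 in the authors' deposited table to -0.03 with a filter at 1 CPM. Both that rose were adenosine receptors: Adora2a went from 0, 0.186 and 0.132 to 1.58, 1.07 and 1.10 CPM, and Adora2b from 2.73 ± 0.357 to 11.4 ± 1.07 CPM. Calcrl, which forms receptors for adrenomedullin and CGRP, fell by 1.42 on the log2 scale. The other 2 that fell, named after their values were seen, were the prostacyclin receptor gene Ptgir and the proton-sensing receptor gene Gpr65, by 1.10 and 0.57. The prostaglandin E2 receptor gene Ptger4, likewise named afterwards, was at 5.09 ± 0.533 CPM in control and 4.92 ± 0.588 CPM in NETs-treated samples (edgeR adjusted p = 0.841).

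Of 16 listed receptors that lower cyclic AMP through Gi, 9 were tested, of which 6 fell and 1 rose (median log2 fold change -1.25), beside 27.2% and 25.5% of all tested genes. In 6 settings 4 fell, namely without any 1 control, without NETs-treated replicate 2, without a filter and with a filter at 1 CPM. The median was -0.52 with that filter, and -0.68 and -0.69 without NETs-treated replicates 2 and 3. The purinergic receptor gene P2ry13 was at 0.581, 0.812 and 0.837 CPM in control and had reads in NETs-treated replicate 1 alone, at 0.0706 CPM. Its fitted log2 fold change of -4.77 became -7.97 without that library, a value that depends on the prior count. P2ry12 had a log2 fold change of -2.73 ± 0.83 at under 1 CPM, and its call was lost in 5 settings. The cannabinoid receptor gene Cnr2 fell from 15.7 ± 2.34 to 4.45 ± 0.430 CPM. Hcar2, the receptor for hydroxybutyrate and niacin, rose from 107 ± 4.98 to 283 ± 27.8 CPM. Among the G protein alpha genes 2 of 4 tested rose and 0 fell, beside 25.5% and 27.2% of all tested genes. Gnai3 went from 171 ± 6.60 to 304 ± 32.9 CPM, and Gnal, a relative of the Gs gene, from 1.68 ± 0.274 to 5.68 ± 1.97 CPM. Gnas, the Gs gene itself and named after its values were seen, was at 1013 ± 154 and 985 ± 48.6 CPM (edgeR adjusted p = 0.765).

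Downstream, 1 of 8 tested genes of protein kinase A subunits and inhibitors rose and 3 fell, beside 25.5% and 27.2% of all tested genes. In 5 of the alternative settings 2 rose, Prkaca being the added one. The regulatory subunit gene Prkar1a rose from 228 ± 3.10 to 357 ± 4.18 CPM. Prkar1b fell from 3.05 ± 0.818 to 0.221 ± 0.0618 CPM, Prkar2b fell by 0.89 and the inhibitor gene Pkib by 1.06 on the log2 scale. The catalytic subunit genes, named after their values were seen, did not pass: Prkaca was at 108 ± 1.66 and 121 ± 5.36 CPM (edgeR adjusted p = 0.0597) and Prkacb at 185 ± 9.19 and 177 ± 19.5 CPM (edgeR adjusted p = 0.619). The A-kinase anchoring proteins, which tether the kinase to its sites in the cell, had 5 of 10 tested genes lower and 1 higher (median log2 fold change -0.32), 6 called of 10 beside 52.7% of all tested genes. Akap6 fell from 37.2 ± 1.23 to 7.83 ± 1.13 CPM, Akap3 and Akap7 by 2.08 and 1.79 on the log2 scale, while Akap11 rose by 0.45. Among other effectors the cyclic AMP exporter gene Abcc4 and the channel gene Hcn2 fell by 0.32 and 0.48, and neither call held without control replicate 3. With GC correction the change of Hcn2 was -0.13 and did not pass (edgeR adjusted p = 0.556).

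Genes known as CREB targets were listed too. That list, like the others, was chosen with earlier results of these data known, so its counts are a description only. The RNA counts used here do not measure the activity of CREB. Outside Pde4b, Pde4d, Sik1 and Crem, which also stand in that list, 10 of 14 tested genes rose and 3 fell, beside 25.5% and 27.2% of all tested genes. Their median log2 fold change was 0.82, against -0.02 over all tested genes. Many of them also answer to NF-kB or serum response factor, so the list is not one of CREB alone. The orphan nuclear receptor genes Nr4a1 and Nr4a3 went from 14.8, 14.4 and 9.91 to 67.3, 58.5 and 49.4 CPM and from 0.360 ± 0.297 to 1.83 ± 0.371 CPM. Ptgs2, the inducible cyclooxygenase gene, had the largest rise of the list at 4.93 ± 0.12 (log2, SE). Against that direction Rgs2, a regulator of G protein signalling, fell from 137 ± 7.56 to 31.1 ± 2.14 CPM.

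Compared per kilobase of the longest transcript, the 10 genes changed order. In control the order was Adcy7 (26.2 ± 0.787 CPM per kilobase), Pde4b (8.68 ± 0.762), Adcy9 (8.28 ± 0.475), Sik1 (5.58 ± 0.411), Pde4a (5.22 ± 0.267), Creb1 (4.94 ± 0.467), Crem (3.48 ± 0.139), Pde7a (3.32 ± 0.297), Pde4d (0.560 ± 0.0775) and Pde3b (0.0469 ± 0.0299). Samples of neighbours overlapped for Pde4b and Adcy9, Sik1 and Pde4a, Pde4a and Creb1, and Crem and Pde7a. In NETs-treated samples Pde4b stood first (73.9 ± 8.91), then Crem (32.4 ± 5.07) and Adcy7 (19.4 ± 1.20), each without overlap with the next. Adcy9 went from the third place to the eighth (2.42 ± 0.254), and Pde4d (0.0967 ± 0.101) from ninth to last, overlapping with Pde3b (0.132 ± 0.0536). Sik1, Creb1, Pde4a and Pde7a held the places from 4 to 7, where Sik1 overlapped with Creb1 and Creb1 with Pde4a.

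With the union of all exons as the length, Adcy7 remained the highest in control and Pde4b in NETs-treated samples. In control Adcy9 and Sik1 then came before Pde4b (3.54 ± 0.311 CPM per kilobase), whose exons span 10560 bases in the union against 4304 in the longest transcript. Pde4b then overlapped with Pde4a (3.17 ± 0.162) in control. In NETs-treated samples Adcy7 (17.1 ± 1.06) and Crem (16.1 ± 2.52) then overlapped. Creb1 was at 3.00 ± 0.284 in control and 4.72 ± 0.533 in NETs-treated samples, and Crem at 1.73 ± 0.0689 in control. The family shares and ratios given above used the longest transcript, so their sizes depend on the length chosen.

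Among 8643 other genes that averaged 10 CPM or more, those whose levels followed Crem most closely over the 6 samples were Lif, Abca1 and Trem1. Their root mean square differences from Crem were 0.191, 0.194 and 0.194 on the log2 scale, with each gene centred on its control mean. Lif encodes a cytokine of the interleukin-6 family, Abca1 a cholesterol exporter and Trem1 a receptor that amplifies inflammatory signals. Pde4d had no match as close: its closest 2, Aarsd1 and Ephx1, differed by 0.462 and 0.633. Pde4d averaged 2.36 CPM in control and 0.407 CPM in NETs-treated samples, and genes as rarely read were not searched. Its looser match therefore cannot be read as a trait of Pde4d. Aarsd1 shared the low value of NETs-treated replicate 3, at 10.7, 8.98 and 0.970 CPM in the NETs-treated samples.

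**Figure D4:**
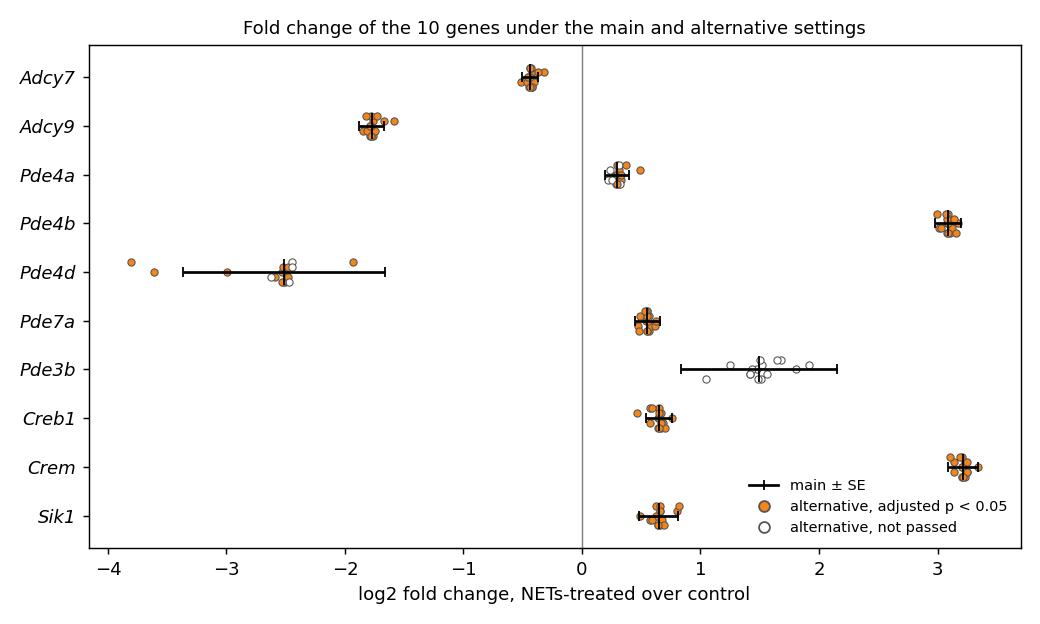
Log2 fold change of the 10 genes under the main fit (black, with SE) and under the alternative settings (points; orange passed an adjusted p of 0.05, white did not). All points of a gene lie on one side of 0; Pde4d spreads from -3.80 to -1.93, Pde4a and Pde4d mix passed and not passed, and no point of Pde3b passed.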

How the data were processed

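Raw read counts per gene for 6 samples were used as deposited, per the file headers. The deposited table also gives a signal column per sample, found here to be that sample's count over a constant size factor. The authors' own log2 fold changes stand in it, deposited with raw and adjusted p-values. The submitters' processing notes name HISAT2, DESeq2, rn6 and mm10 without roles; the identifiers are mouse genes. No source used here names the counting program or its strand setting, so reads of overlapping or antisense genes may not be parted.

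Counts were filtered (edgeR filterByExpr, minimum count 10, minimum total 15), which kept 15272 genes with 99.9% of counts, scaled by TMM and tested two-sided by quasi-likelihood in edgeR 4.0.16 (R 4.3.3), group only, Benjamini-Hochberg over all tested genes. SE is the log2 fold change over the root of F. CPM are TMM-scaled. On counts simulated for NETs-treated against control (14876 genes), 62.6% of 2-fold and 30.2% of 1.5-fold changes were recovered and 3 of 14681 unchanged genes called. In that simulation 99 genes changed 2-fold and 96 changed 1.5-fold, while 52.7% of tested genes were called in the data. The adjustment depends on that share, so these rates do not carry over to the data. Alternatives were DESeq2 1.42.0, limma 3.58.1 voom, other scalings and filters, a GC offset, a replicate block, leaving out each sample, and the authors' table.

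Coordinates and lengths came from GENCODE M21 (GRCm38), where 55141 of 55401 identifiers matched without version, and promoters from RefSeq (GRCm38.p6). The members and lists were chosen with earlier results of these data known. Beyond the 10 genes, up to 3 called genes per list with the largest change and 1 against the majority were named, or the most abundant where none passed. Genes most like Crem and Pde4d, the members with the largest rise and fall, were sought on log2(CPM + 0.1). Of the 3 sought for each, 1 for Pde4d is not reported here. Samples of one group differed by more than sampling noise (chi-square per gene from 9.77 to 77.2), so each counted as 1 sample.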

Additional observations from a re-analysis of the deposited data

How the results depend on the processing

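Of the 10 genes, 7 to 9 were called under every one of the 16 alternatives, 5 to 6 higher and 2 to 3 lower, and no direction reversed. Pde4b, Crem, Adcy9, Adcy7, Creb1, Sik1 and Pde7a passed in all settings. Calls were lost only for Pde4a and Pde4d; without a filter on low counts both were lost (adjusted p = 0.0702 and 0.0863). Pde3b passed in none of the 15 settings that tested it, with log2 fold changes from 1.05 to 1.91. Over all genes 6716 to 8497 were called when 1 sample was left out, against 8051. The replicate number as a block gave 8105 calls and the same 9 of 10 genes. Deviations of same-numbered samples correlated at 0.124, 0.0271 and 0.0671, so the numbers were not taken to pair the samples, although every sample correlated best with its own number. Scaling by library size only moved the median log2 fold change of all tested genes from -0.02 to -0.09 and the share of calls that were higher from 48.4% to 42.0%. The promoter windows with a CRE-type motif numbered 0 for the full palindrome and 4 for its core. Of 47 other named genes, 14 crossed the threshold or 0 in at least 1 setting. Those that changed sign had not passed in the main fit. Leaving out 1 sample at a time, their log2 fold changes ran from -0.164 to 0.0417 for Gnas, from -0.136 to 0.0333 for Prkacb, from -0.110 to 0.0484 for Ptger4, from -0.0935 to 0.184 for Sik3 and from -0.0727 to 0.387 for Stk11, the last 2 being highest without NETs-treated replicate 3 and lowest without replicate 1. Without NETs-treated replicate 3 both Sik3 and Stk11 were called higher, as was Stk11 with GC correction. Gnas was also at 0.17 with GC correction. Sik3 was at -0.0655 with library size only, -0.0033 with upper-quartile scaling, -0.0114 with limma-voom and -0.0121 with the replicate block. At these depths Pde3b and Pde4d, with at most 45 and 36 counts per NETs-treated library, limit what can be read from their fold changes.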
